A study of Mus musculus with 2 samples.

Results

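The genes described here encode the proteins of the 2 ribosomes of a mouse cell, the cytosolic ribosome and the mitochondrial ribosome. They were chosen by name. A probe set was a member if the platform annotation gave it exactly 1 gene symbol and that symbol began with Rps, Rpl or Rplp (cytosolic) or with Mrps or Mrpl (mitochondrial) followed by a number, so that the ribosomal S6 kinases stayed out. This gave 259 probe sets for 124 genes, of 45101 probe sets on the array. The cytosolic ribosome had 103 probe sets for 48 genes and the mitochondrial ribosome 156 probe sets for 76 genes.

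The study measured total RNA of embryoid bodies, which are clumps of embryonic stem cells that have started to differentiate. The FGF10 sample was kept in differentiation medium with recombinant FGF10 protein, a fibroblast growth factor, at 100 ng/ml, and the control sample in differentiation medium with no added agent. Both came from CGR8 cells, a mouse embryonic stem cell line of strain 129 grown without feeder cells in serum and leukemia inhibitory factor, and both were made as hanging drops. RNA extraction is given as day 2 in the labels, but as 24 h after FGF10 was given to 2-day bodies in the design text, which leaves the exact stage unsettled. Each group was 1 array, so no difference below has a replicate check, a p-value or an SD over samples, and CGR8 is a single line.

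A ribosome reads mRNA and joins amino acids into protein. Its small subunit (Rps and most Mrps proteins) decodes the message and its large subunit (Rpl and Mrpl proteins) forms the peptide bond. The P-stalk proteins of the large subunit recruit the translation factors. Genes for the cytosolic proteins are highly expressed in dividing cells, and many of their mRNAs begin with a pyrimidine tract through which the mTOR pathway sets their translation. Mitochondrial ribosomal proteins are also encoded in the nucleus. They are imported to build the ribosome that makes the few membrane proteins of the respiratory chain that mitochondrial DNA encodes.

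Values are MAS5 signals, 1 per probe set and array on a linear scale, scaled to a common mean. Ratios are log2(FGF10 signal / control signal) minus the median of all probe sets kept, so 0 is the middle of the array and a negative ratio means lower with FGF10. A probe set was kept if its mean signal over both arrays was at least 76.35, the median of the array, and a gene took the ratio of its brightest kept probe set. The filter left out 28 member probe sets, 7 cytosolic and 21 mitochondrial. It kept 46 cytosolic genes and all 76 mitochondrial genes among 11122 genes in all. The cytosolic genes without a kept probe set were Rpl3l, the muscle form of Rpl3, at 4.4 with FGF10 and 42.6 in control, and Rps16 at 2.4 with FGF10 and 1.1 in control.

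The cytosolic genes were slightly lower with FGF10 almost throughout. Their median ratio was -0.30, which is 1.23-fold lower, and 43 of 46 were below 0, against 53.5% of all genes. The median signal of the cytosolic genes was 24222. Of 97 other genes with a signal of 15000 or more, 94.8% were below 0 and 48.5% at least 1.2-fold lower. The middle 50% of the cytosolic genes lay between -0.35 and -0.25. At the fixed size of 1.2-fold, 32 of 46 were lower and 1 was higher, against 21.7% lower and 18.6% higher among all genes. The count of lower genes was 4 with quantile normalization, 4 with loess on signal and 2, with 3 higher, when centred on the spiked control transcript cre, and the median was -0.0016, -0.037 and -0.046 in that order. Shares of all genes were not counted under those settings. At 1.5-fold in the main setting 1 was lower and 0 were higher, against 4.86% lower and 5.41% higher among all genes. The same 1, Rpl39l, was past 2-fold, against 1.29% of all genes lower and 1.32% higher by that size.

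The mitochondrial genes were also low, by a median of -0.23, or 1.17-fold, and they were more spread out. Of 76 genes 59 were below 0, against 57% of the 4267 other genes within the same range of signal, and the middle 50% lay between -0.37 and -0.029. At 1.2-fold 30 were lower and 1 was higher, against 18.2% and 12.1% of those other genes. Centred on the cre spikes instead, 2 were lower and 17 higher, and the median turned to 0.026. That centring subtracts the cre mean of -0.25 from every gene on the array. Shares of other genes were not counted under it, so these counts have no share beside them. At 1.5-fold in the main setting 2 were lower and 0 were higher. Of the 4267 other genes 55 were lower and 93 higher by that size, and of all genes 4.86% and 5.41%. In a bulk sample, fewer cells of a type and less RNA per cell cannot be told apart.

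The ratio on these arrays also moved with signal in genes outside the ribosome. In sets of 550 other genes of rising signal, the median ratio was 0.020 at a signal of 822, -0.087 at 3330 and -0.18 at 9520. Each gene's ratio was therefore also given minus the median of the 200 other genes nearest to it in signal, the baseline of like signal. After this step the cytosolic median was -0.098, or 1.07-fold lower, with 40 of 46 genes below 0. It was -0.050 with 100 neighbours in place of 200 and -0.13 with 400. The brightest members shared neighbours that were mostly dimmer than they were. The mitochondrial median was -0.17, or 1.13-fold lower, with 55 of 76 below 0, against 50.5% of all genes and 50.1% of the other genes within their signal range. The cytosolic minus the mitochondrial median was -0.072 before the baseline and 0.072 after it, so which ribosome lay lower depended on this step. The value after it was 0.11 with 100 neighbours and 0.034 with 400.

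**Figure D1:**
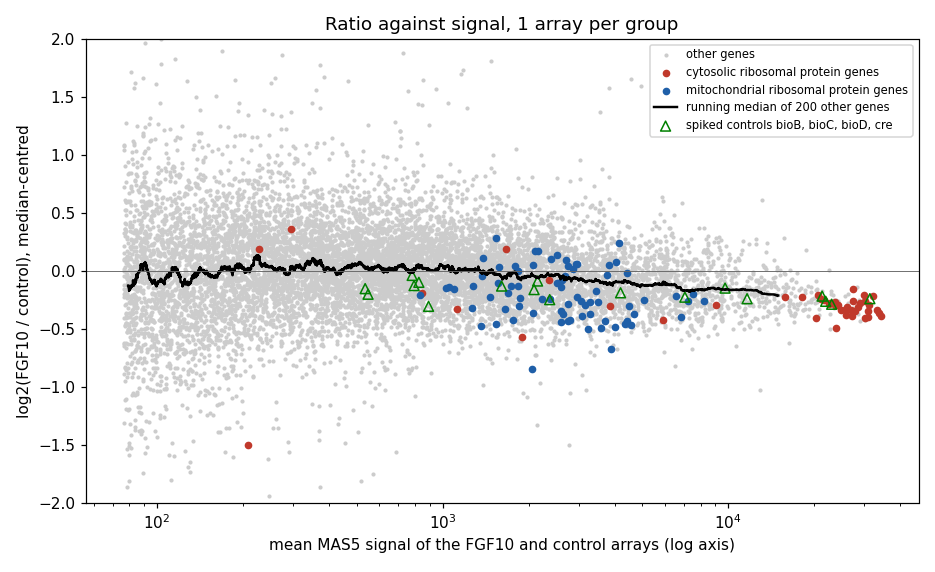
Centred log2 ratio of FGF10 over control (y axis) against the mean MAS5 signal of both arrays (x axis, log scale) for each of 11122 genes, of which 29 lie beyond the axis limits of 2 and -2; the line is the running median of 200 other genes and triangles are probe sets of 4 spiked controls. Cytosolic genes (red) crowd at the bright end at a median of -0.30, mitochondrial genes (blue) lie mostly between signals of 1000 and 8000, and the line bends down as signal increases.

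At the bright end both the cytosolic genes and their neighbours were low. All 35 cytosolic genes with a mean signal of 15000 or more were below 0, from -0.49 to -0.16 with a median of -0.30. Of 97 other genes this bright, 94.8% were below 0, with a median of -0.25. At least 1.2-fold lower were 26 of the 35, against 48.5% of the 97. Relative to the baseline 32 of the 35 were below 0 and 1 was 1.2-fold lower, against 61.9% and 2.06% of the 97. The bright cytosolic median minus that of the 97 others was -0.044, a difference that was not tested. Relative to the baseline, 5 of the 46 cytosolic genes were at least 1.2-fold lower and 1 was higher, against 18.9% and 19.5% of all genes.

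The mitochondrial genes stayed below other genes of the same signal. Between 1000 and 2000 the median was -0.14 for 22 mitochondrial genes and -0.013 for 1801 others. Between 2000 and 4000 it was -0.24 for 38 mitochondrial genes and -0.063 for 1225 others. Between 4000 and 8000 it was -0.28 for 14 mitochondrial genes and -0.12 for 693 others. Relative to the baseline 22 of 76 were at least 1.2-fold lower and 2 were higher, against 13.1% and 14.7% of the 4267 other genes within the mitochondrial signal range.

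Control transcripts added to the samples were also read. The 4 probe sets of cre, the brightest spike, read 19976 to 29123 with FGF10 and 22687 to 33582 in control, a mean ratio of -0.25. The bioC spike lay in the signal range of the mitochondrial genes, at 1554.6 to 2195 with FGF10 and 1662.5 to 2545.8 in control, a mean ratio of -0.16. Mean ratios were -0.20 for bioD, -0.15 for bioB and 0.11 for dap. The dim thr, phe and lys spikes went both ways, with 10 of 18 probe sets below 0 and ratios from -0.37 to 0.67. The 4 spikes cre, bioD, bioC and bioB were low on every probe set, and their part in the ribosomal values was not tested. The ratio of the 3' to the 5' probe set was 0.811 with FGF10 and 0.812 in control for Gapdh, 1.23 and 1.27 for beta-actin, and 1.97 and 2.23 for the transferrin receptor.

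Promoters of the members are shown because most genes of each ribosome, 43 of 46 and 59 of 76, had ratios below 0. This was not particular to them. Below 0 were also 94.8% of 97 other genes with a signal of 15000 or more, and 57% of the 4267 within the mitochondrial signal range. RefSeq's table for GRCm38.p6 held a promoter for 42 of the 48 cytosolic and 67 of the 76 mitochondrial genes, here the first start listed, from 250 bases before to 50 after it. The windows below run from 45 bases before the start, which is base 46, through 15 bases from it, 5′ to 3′ on the gene's strand. The genes were picked after their values were seen, from the brightest, the highest and the lowest. Capitals mark the letters CCGGAAG or its reverse complement CTTCCGG, which ETS-family factors such as GABP recognise, and the palindrome that NRF1 recognises. They also mark any pyrimidine run near the start, defined as a C followed by at least 4 pyrimidines within 10 bases of it. Such a run need not include the start itself. Bright cytosolic genes come first, then the lowest and the highest cytosolic gene, then bright mitochondrial genes, and then the lowest and the highest mitochondrial gene.
Rpl13a: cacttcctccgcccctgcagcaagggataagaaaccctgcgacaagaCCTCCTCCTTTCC
Rps3a1: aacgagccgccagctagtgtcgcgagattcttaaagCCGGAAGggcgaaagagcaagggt
Rps7: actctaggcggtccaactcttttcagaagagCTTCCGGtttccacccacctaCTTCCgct
Rpl39l: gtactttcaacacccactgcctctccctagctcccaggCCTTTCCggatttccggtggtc
Rpl39: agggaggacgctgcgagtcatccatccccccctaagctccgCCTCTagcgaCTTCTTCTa
Mrpl12: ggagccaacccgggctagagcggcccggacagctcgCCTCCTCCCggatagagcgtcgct
Mrpl51: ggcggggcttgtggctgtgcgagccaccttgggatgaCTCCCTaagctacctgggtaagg
Mrpl39: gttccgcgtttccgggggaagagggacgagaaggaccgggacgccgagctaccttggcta
Mrpl33: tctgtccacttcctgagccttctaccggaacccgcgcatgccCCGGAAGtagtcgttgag
Mrpl9: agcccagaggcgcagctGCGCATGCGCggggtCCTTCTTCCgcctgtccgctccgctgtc
On GRCm38.p6 the cytosolic windows are chr7:45128731-45128790 (minus strand) for Rpl13a, chr3:86142654-86142713 (minus strand) for Rps3a1, chr12:28635939-28635998 (minus strand) for Rps7, chr16:10170183-10170242 (plus strand) for Rpl39l and chrX:37085208-37085267 (minus strand) for Rpl39. The mitochondrial windows are chr11:120484592-120484651 (plus strand) for Mrpl12, chr6:125192155-125192214 (plus strand) for Mrpl51, chr16:84735230-84735289 (minus strand) for Mrpl39, chr5:31613906-31613965 (plus strand) for Mrpl33 and chr3:94443291-94443350 (plus strand) for Mrpl9. Each covers the end of the promoter and the beginning of the transcript.

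The letters CCGGAAG stood in the promoters of 47.6% of the cytosolic and 35.8% of the mitochondrial genes, against 9.12% of all 27025 promoters in the table, on either strand. A pyrimidine run near the start stood in 59.5% of the cytosolic and 43.3% of the mitochondrial genes, against 30.8% of all, on the gene's strand only. The NRF1 palindrome stood in 2.38% of the cytosolic and 4.48% of the mitochondrial genes, against 0.977% of all. The runs can overlap a CTTCCGG match. The median ratio with CCGGAAG was -0.33 for 20 cytosolic genes, against -0.29 for 20 without it, and -0.16 for 24 mitochondrial genes, against -0.26 for 43 without it. With a pyrimidine run it was -0.27 for 24 cytosolic genes, against -0.32 for 16 without it, and -0.24 for 29 mitochondrial genes, against -0.25 for 38 without it. The order with and without CCGGAAG was thus opposite in the 2 ribosomes, and the order with and without a pyrimidine run was the same. No difference between these medians was tested.

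Among the small-subunit proteins of the cytosolic ribosome, 18 of 19 genes were below 0, with a median of -0.29. Rps29, a small zinc-binding protein and the brightest member, had a signal of 29966 with FGF10 and 38424 in control, a ratio of -0.39. Rps3a1 had 29675 with FGF10 and 36613 in control, a ratio of -0.34. Rps7, which can bind the p53 regulator Mdm2, had 28226 with FGF10 and 33793 in control, a ratio of -0.29. Rps20 had 30048 with FGF10 and 34052 in control, a ratio of -0.21. In each of these 4 bright genes the FGF10 array was the lower one.

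The small-subunit gene farthest below 0 was Rps25, a protein that some viral and cellular internal ribosome entry sites need. It had 1549.2 with FGF10 and 2244.7 in control, a ratio of -0.57. Rps6, whose phosphorylation by S6 kinase is a common readout of mTOR activity, had 1011.9 with FGF10 and 1240.4 in control, a ratio of -0.33. Rps27, a zinc-binding protein, was the small-subunit gene above 0. It was read by a dim probe set, at 245.1 with FGF10 and 210 in control, a ratio of 0.19.

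Among the large-subunit proteins, 18 of 20 genes were below 0, with a median of -0.32. Rpl11, which with Rpl5 and the 5S rRNA can bind Mdm2, was the lowest of the bright genes, at 20140 with FGF10 and 27624 in control, a ratio of -0.49. Rpl13a had 29795 with FGF10 and 37526 in control, a ratio of -0.37. Rpl37 had 5124.2 with FGF10 and 6697.8 in control, a ratio of -0.42. All 3 were lower with FGF10.

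The large-subunit genes at the high end were dimmer. Rpl14 had 2327.5 with FGF10 and 2399.6 in control, a ratio of -0.078, and lay within 1.2-fold. Rpl12, at the base of the stalk, had 1794.5 with FGF10 and 1537.8 in control, a ratio of 0.19. Rpl39, a short protein that lines the exit tunnel for the growing chain, was the highest cytosolic gene, at 335.4 with FGF10 and 254.3 in control, a ratio of 0.37. Each of these 3 probe sets was dimmer than that of Rpl13a, which ranks the probe sets and not the mRNAs.

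Of the P-stalk genes, Rplp0, the stalk's base, had 20776 with FGF10 and 24515 in control, a ratio of -0.27. Rplp2, one of the acidic proteins that form the stalk's flexible tips, had 26230 with FGF10 and 28560 in control, a ratio of -0.16, the highest of the 35 bright genes. Relative to the baseline Rplp0 was at -0.060 and Rplp2 at 0.056, on opposite sides of it.

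The paralogues, close relatives of a ribosomal protein encoded by a gene of their own, were all below 0, 5 of 5, with a median of -0.30. Rpl39l, the relative of Rpl39 that is best known from male germ cells, was the lowest member of either ribosome. Its only kept probe set read 110.3 with FGF10 and 304.3 in control, a ratio of -1.50, or 2.83-fold lower, while Rpl39 itself was the highest cytosolic gene. Both were dim, and dim probe sets were noisier: among other genes near a signal of 208 the SD of the ratio over genes was 0.45. Rps27l, known in human cells as a target of p53, was bright and low, at 17646 with FGF10 and 22888 in control, a ratio of -0.41. Its 3 probe sets ran from -0.43 to -0.39.

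The other paralogues lay near the group's median. Rpl22l1 had 14815 with FGF10 and 16903 in control, a ratio of -0.22. Rpl7l1 had 3491.2 with FGF10 and 4197.6 in control, a ratio of -0.30, but another probe set of it read 0.036. Rps4l had 8221.9 with FGF10 and 9873.4 in control, a ratio of -0.30. Sequences of paralogues and pseudogenes are alike enough that probes may pick up several of them, and how far they did was not tested.

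**Figure D2:**
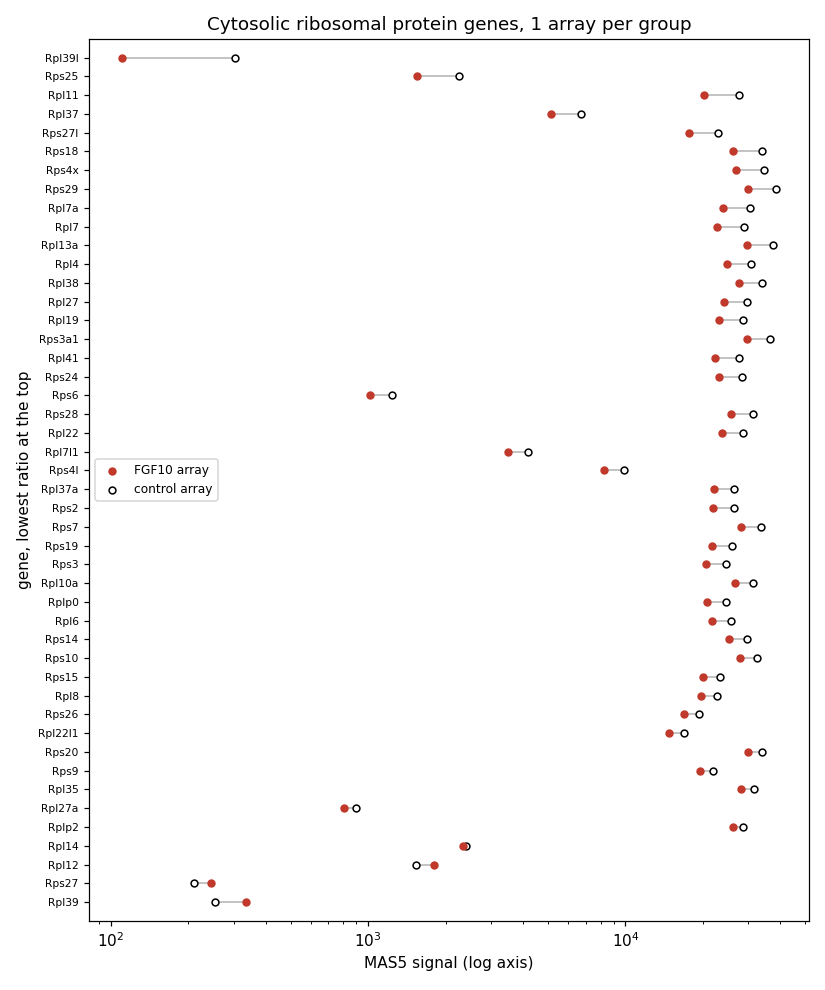
MAS5 signal (x axis, log scale) of the 46 kept cytosolic ribosomal protein genes, each by its brightest kept probe set, with the FGF10 array as a filled and the control array as an open point, 1 array each; genes run down the page from the lowest ratio to the highest. The FGF10 point lies left of the control point in 43 genes, and Rpl12, Rps27 and Rpl39 are the exceptions.

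Separate probe sets of a cytosolic gene read alike where they were bright. Of 20 genes with another kept probe set, 19 had the same sign on the 2 brightest, with medians of -0.30 on the brightest and -0.29 on the next, and an SD between probe sets of a gene of 0.068. Among other genes 65.5% had the same sign, but at a median signal of 401 on the next probe set, against 21060 here. Of 97 other genes at 15000 or more 94.8% were below 0, so a shared sign was likely in any gene this bright. Every one of the 68 kept cytosolic probe sets with a signal of 10000 or more was below 0. So were 84.7% of other genes between 10000 and 15000, each by its brightest probe set. Of kept cytosolic probe sets between 1000 and 10000, 7 of 13 were below 0, and of those under 1000, 8 of 15. Of other genes 46.2% were below 0 between 500 and 1000, 52.2% between 1000 and 2000 and 73.6% between 8000 and 10000. By gene, the 11 cytosolic genes with a mean signal under 15000 had a median of -0.30 with 8 below 0, and of -0.19 relative to the baseline, against -0.085 for the 35 brighter ones.

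Some genes held both kinds. The 4 bright probe sets of Rps24 ran down to -0.49, while a dimmer one had 1719.1 with FGF10 and 960.5 in control, a ratio of 0.81. In Rpl41, one of the shortest proteins known, the brightest probe set had a ratio of -0.34, while a dimmer one had 1396.5 with FGF10 and 792.7 in control, a ratio of 0.78. Rps18 ran from -0.95 on a probe set with 92.5 with FGF10 and 173.9 in control to 0.099 on another dim one. Another 114 probe sets carried a ribosomal symbol beside other symbols, 110 of them cytosolic, and were not members. Of these 109 were kept, 100 of them below 0, with a median ratio of -0.31 at a median signal of 22716. Of 97 other genes with a signal of 15000 or more, 94.8% were below 0.

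Subunits of the mitochondrial ribosome were told apart by gene name. Of 29 Mrps genes, named for the small subunit, 24 were below 0, with a median of -0.25 and of -0.19 relative to the baseline. The lowest were Mrps33, at 2703.9 with FGF10 and 3728.1 in control, a ratio of -0.50, and Mrps18c, at 3383.6 with FGF10 and 4629 in control, a ratio of -0.49. Mrps34 was the highest, at 4544.4 with FGF10 and 3761.3 in control, a ratio of 0.24. Mrps30, which recent structures place in the large subunit despite its name, had 2318.1 with FGF10 and 2005.9 in control, a ratio of 0.17.

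Of 47 Mrpl genes, named for the large subunit, 35 were below 0, with a median of -0.21 and of -0.13 relative to the baseline. Mrpl33, the counterpart of bacterial L33, was the lowest mitochondrial gene, at 1489.4 with FGF10 and 2616.4 in control, a ratio of -0.85, or 1.80-fold lower. Its only other probe set was below the filter, at 51.2 with FGF10 and 26.4 in control. Mrpl35 had 3051.6 with FGF10 and 4750.3 in control, a ratio of -0.67, or 1.59-fold lower. Other probe sets of Mrpl35, both dim, read -0.66 and 0.051. Mrpl20 had 3022.6 with FGF10 and 4154.7 in control, a ratio of -0.49. Mrpl33 and Mrpl35 were the 2 mitochondrial genes past 1.5-fold.

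The brightest large-subunit genes were all lower with FGF10 and lay within 1.5-fold. Mrpl12, a stalk protein that also binds the mitochondrial RNA polymerase, had 7558.6 with FGF10 and 8842.8 in control, a ratio of -0.26. Mrpl51 had 7087.1 with FGF10 and 7957.7 in control, a ratio of -0.20. Mrpl39 had 6693.1 with FGF10 and 7808 in control, a ratio of -0.26. Among these 5 brightest genes Mrpl42 was the lowest, at 6009.1 with FGF10 and 7712.8 in control, a ratio of -0.39. Mrpl15 had 6132.4 with FGF10 and 6955.5 in control, a ratio of -0.22.

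At the other end, Mrpl9 was the highest mitochondrial gene, at 1713.2 with FGF10 and 1373.3 in control, a ratio of 0.28. Its 3 probe sets ran from -0.11 to 0.28, so its direction was not settled. Mrpl43 had 2260.8 with FGF10 and 1960.8 in control, a ratio of 0.17. Mrpl23 had 2676.1 with FGF10 and 2373 in control, a ratio of 0.14. Mrpl9 was the mitochondrial gene at least 1.2-fold higher. In all, 12 genes named Mrpl and 5 named Mrps were above 0.

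**Figure D3:**
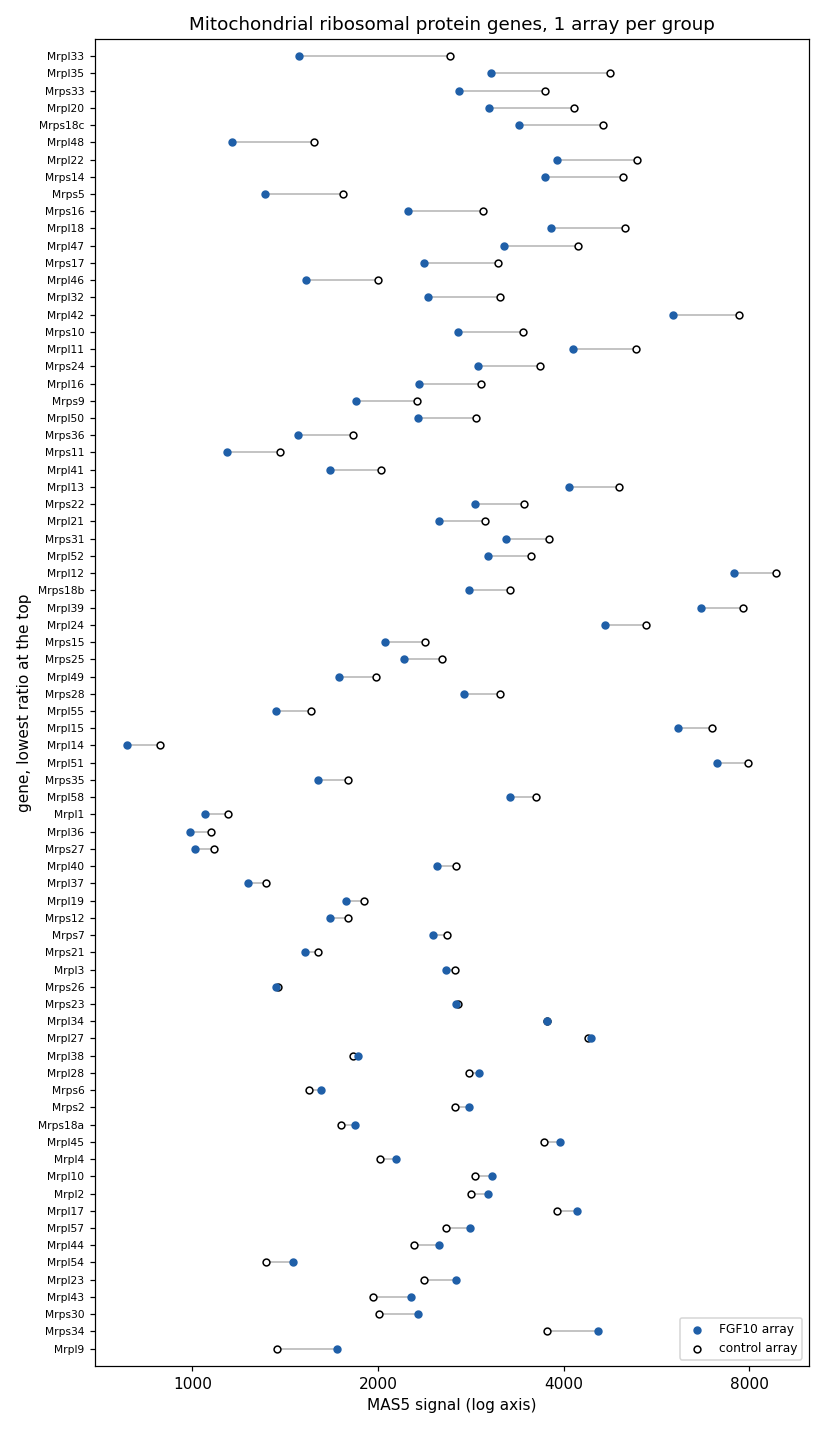
MAS5 signal (x axis, log scale) of the 76 mitochondrial ribosomal protein genes, each by its brightest kept probe set, with the FGF10 array as a filled and the control array as an open point, 1 array each; genes run down the page from the lowest ratio to the highest. The gap between the points is widest for Mrpl33, and the FGF10 point lies on the right in the 17 genes above 0 and, before the median is subtracted, also in Mrpl38, Mrpl27 and Mrpl34.

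Some mitochondrial ribosomal proteins descend from proteins of the bacterial ribosome and others were added later. The 45 with a bacterial counterpart had a median of -0.25 with 35 below 0, and the 31 without one had a median of -0.20 with 24 below 0. The medians relative to the baseline were -0.19 and -0.16. The difference between the first pair of medians was -0.052 and was not tested.

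**Figure D4:**
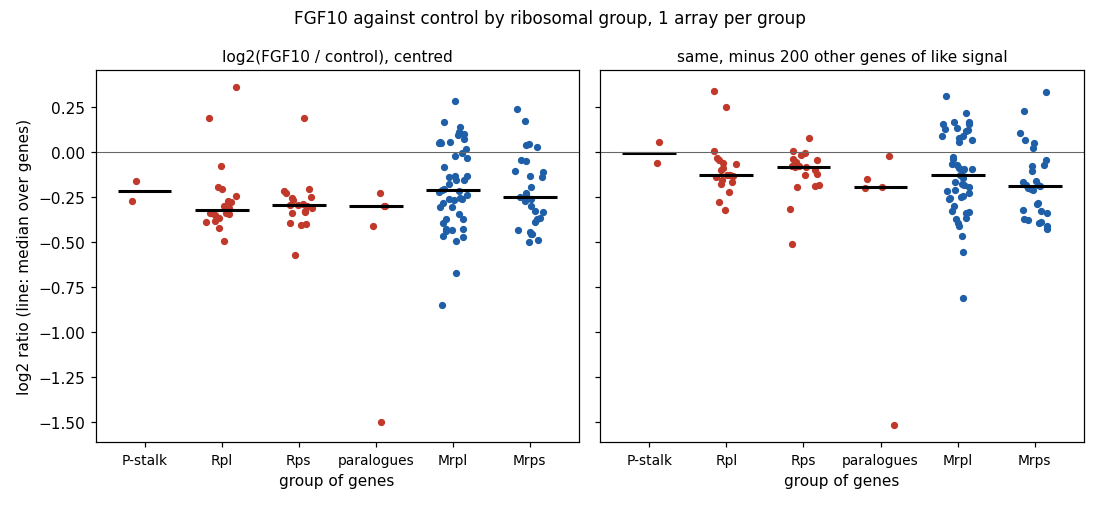
Log2 ratio of FGF10 over control (y axis), centred (left panel) and minus 200 other genes of like signal (right panel), for the genes of each subunit or group (x axis), with 1 point per gene and a line at the median. The lines for Rpl and Rps move toward 0 from the left panel to the right, to -0.13 and -0.081, and those for Mrpl and Mrps lie at -0.13 and -0.19 there.

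Separate probe sets of a mitochondrial gene differed more than those of a cytosolic one. Of 34 genes with another kept probe set, 26 had the same sign on both, against 65.5% of other genes, and the SD between probe sets of a gene was 0.19, against 0.27 for other genes. The medians were -0.24 on the brightest and -0.23 on the next probe set, against -0.0047 and 0.017 for other genes. The next probe set had a median signal of 1047 in mitochondrial, 21060 in cytosolic and 401 in other genes. The part of signal in these differences was not tested. Of kept mitochondrial probe sets between signals of 1000 and 10000, 80 of 102 were below 0, and of those under 1000, 18 of 33. Other genes, each by its brightest probe set, were below 0 in 46.2% between 500 and 1000, 52.2% between 1000 and 2000 and 73.6% between 8000 and 10000. The widest spreads were in Mrpl28, from -1.41 to 0.050, in Mrpl11, from -0.37 to 0.80, and in Mrpl38, from -0.44 to 0.43.

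Genes around the ribosome were read the same way, from lists chosen by function. The ribosomal proteins Rpsa and Fau, whose names the rule did not match, had ratios of -0.33 and -0.29, like the other cytosolic genes. Of 68 genes for ribosome assembly and RNA polymerase I, 60 were below 0, with a median of -0.25 and of -0.16 relative to the baseline. Of these, 32 were at least 1.2-fold lower and 1 was higher, against 21.7% and 18.6% of all genes. The lowest were Rrp9, of the U3 particle that processes pre-rRNA, at -0.70, and Nhp2, of the particles that make pseudouridine in rRNA, at -0.62. The highest were Noc4l at 0.31 and Gar1 at 0.13.

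A list of cytosolic elongation and initiation factors, which also held Tpt1, Naca, Btf3, Nap1l1 and Hnrnpa1, had a median of -0.24 over 36 genes. Relative to the baseline its median was -0.054. Of the 36 genes, 16 were at least 1.2-fold lower and 0 higher, against 21.7% and 18.6% of all genes. Eif2s3x was lowest at -0.43 and Eif3i next at -0.40. Hnrnpa1, an RNA-binding protein whose mRNA has a pyrimidine tract, was highest at 0.15 and Eif5 next at 0.044. The kept probe sets of Hnrnpa1 ran from -0.036 to 1.98, and those of Eif5 from -0.13 to 0.14. Proteasome and chaperone genes, taken as other bright housekeeping genes, had a median of -0.27 over 40 genes and of -0.10 relative to the baseline, with 21 at least 1.2-fold lower and 0 higher. Among them Psma5 was lowest at -0.50 and Psmb7 next at -0.44, with Psmd8 highest at 0.075 and Psmd3 next at -0.021. These medians were close to those of the cytosolic ribosome.

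Genes that control ribosomal protein transcription or translation lay on the other side. Of 23 genes, 18 were above 0, with a median of 0.23. At least 1.2-fold higher were 10 and lower were 3, against 18.6% higher and 21.7% lower among all genes. Ddit4, an inhibitor of mTOR complex 1 known to be induced by stress, had 5179.6 with FGF10 and 1957.6 in control, a ratio of 1.37. Max, the partner of Myc in DNA binding, had 1000.1 with FGF10 and 422.4 in control, a ratio of 1.21. Each had 1 kept probe set. Myc had 1264 with FGF10 and 1024.9 in control, a ratio of 0.27, while Mycn had 3551.2 with FGF10 and 3764.6 in control, a ratio of -0.12.

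Mtor, the kinase itself, had a ratio of 0.16, with its other probe set at -0.25. Larp1, which binds pyrimidine-tract mRNAs, had 6542.1 with FGF10 and 5580 in control, a ratio of 0.20. The lowest of this list were Gabpb1, a subunit of GABP, at -0.40 with another probe set at 0.010, and Eif4ebp1, a translation repressor that mTOR inactivates, at -0.38 with its probe sets from -0.41 to 0.087. Levels of Rps6kb1 were not analysed here.

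The other mitochondrial lists had medians nearer 0 than the mitochondrial ribosome, in part by little relative to the baseline, and no difference was tested. Of mitochondrial ribosome subunits the name rule did not match, 4 genes had a median of -0.16, and of -0.052 relative to the baseline, from -0.35 for Ptcd3 and -0.19 for Chchd1 to -0.13 for Dap3 and 0.23 for Gadd45gip1. Mitochondrial translation factors and assembly genes had a median of -0.13 over 32 genes, and of -0.12 relative to the baseline. At least 1.2-fold lower were 11 and higher were 3, against 21.7% and 18.6% of all genes. The ends of this list were Mtif3 at -0.68 and Mettl17 at -0.45, and Tsfm at 0.38 and Nsun4 at 0.51. Genes for mitochondrial gene expression and biogenesis had a median of -0.16 over 25 genes, and of -0.16 relative to the baseline against -0.17 for the mitochondrial ribosome, with 7 lower and 1 higher by that size. Their ends were Ssbp1 at -0.50 and Timm23 at -0.44, and Polrmt at 0.12 and Lonp1 at 0.30.

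Aminoacyl-tRNA synthetases, the enzymes that charge tRNAs, had medians near 0 for both compartments. The mitochondrial list, which also holds Gatb, Gatc and Qrsl1, subunits of the amidotransferase that completes glutaminyl-tRNA, had a median of -0.018 over 21 genes. At least 1.2-fold lower were 2 and higher was 1, against 21.7% and 18.6% of all genes. The list ran from Sars2 at -0.53 and Ears2 at -0.36 to Gatc at 0.23 and Lars2 at 0.33. The cytosolic ones had a median of -0.087 over 18 genes, and of -0.017 relative to the baseline, with 4 lower and 1 higher. They ran from Farsb at -0.45 and Rars at -0.44 to Iars at 0.088 and Vars at 0.29.

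Summed signals of cell type markers differed between the arrays as well. Undifferentiated and epiblast markers, 8 of 8 kept, summed to 38575 with FGF10 and 39080 in control. This sum joins both kinds of marker and does not tell undifferentiated from epiblast cells. Primitive streak and mesendoderm markers, 7 of 7 kept, summed to 14532 with FGF10 and 2877 in control. Visceral endoderm markers, 7 of 7 kept, summed to 7279 with FGF10 and 11026 in control. Of fibroblast markers 2 of 8 were kept, of blood and endothelium markers 1 of 7 and of neural markers 3 of 4, with sums of 455, 237 and 753 with FGF10 and of 625, 421 and 1051 in control. The part of these markers' cells in the ribosomal ratios was not tested.

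**Figure D5:**
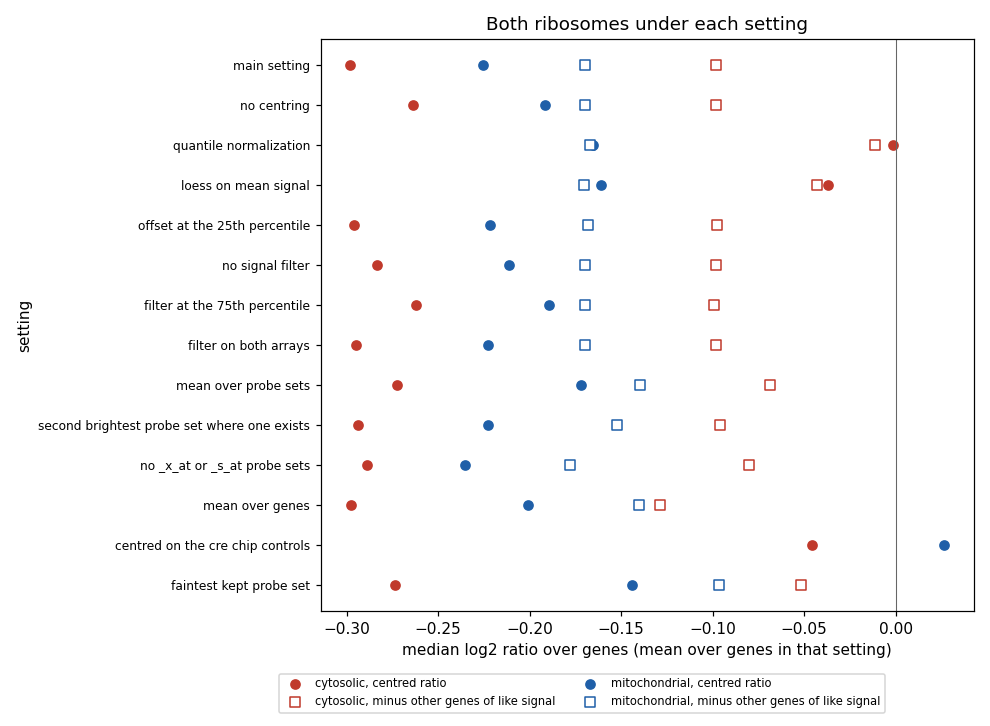
Median log2 ratio over genes (x axis) of the cytosolic (red) and mitochondrial (blue) ribosomal protein genes under each way of processing the arrays (y axis), other numbers of neighbouring genes aside, as centred ratio (filled circles) and minus other genes of like signal (open squares). The cytosolic circle moves from -0.30 to -0.0016 with quantile normalization, while the mitochondrial squares stay between -0.18 and -0.097.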

How the data were processed

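Total RNA of 1 FGF10 and 1 control sample was read on 1 Affymetrix mouse array each, with groups taken from the sample titles and labels. The authors deposited 1 linear signal intensity per probe set, made with MAS5 per the submitters' processing notes. No version of it is given. Both columns have a mean of 500.003 without their lowest and highest 2%, so a ratio is relative to the rest of the array. Scaling of this kind removes a difference in total RNA. Gene symbols come from the array's platform table. Among 45037 probe sets other than chip controls, 34945 had 1 symbol, 932 several and 9160 none, and genes were matched to RefSeq by gene identifier for 124 of 124 members. Log2 ratios, the signal filter, the baseline of 200 genes and the counts at 1.2-, 1.5- and 2-fold were computed with Python 3.11.15, numpy 2.4.6 and pandas 2.3.3. Medians of both ribosomes relative to the baseline were checked on simulated data. That check accepted an error larger than the 0.072 between the 2 ribosomes, so it does not cover differences this small. No test was possible with 1 array per group, and the number of arrays limits the precision. Members and lists were chosen with earlier results of these data known. Named genes were the 5 highest, 5 lowest and 5 brightest of each ribosome, the P-stalk and paralogue genes, the 3 with the widest probe set spread, the 2 highest and 2 lowest of each other list, and 6 set control genes, with a few others picked after their values were seen.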

Additional observations from a re-analysis of the deposited data

How the results depend on the processing

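No paired analysis was possible because each group had 1 array. Settings were compared as values, and 0.1 on the log2 scale or 1.5 times for a count was taken as a move. Shares over all genes were counted under the main setting only. The cytosolic median went to -0.0016 with quantile normalization, -0.037 with loess on signal and -0.046 when centred on the cre spikes, a centring chosen after seeing the data. The mitochondrial median turned to 0.026 with the cre centring, and stayed below 0 under the other settings. The cytosolic minus mitochondrial median turned to 0.16 with quantile normalization and 0.12 with loess. Relative to the baseline, the cytosolic median ran from -0.19, over genes with at least 100 brighter others, to -0.011 with quantile normalization, and the mitochondrial median from -0.18 to -0.097. The brightest members share the same neighbours, the brightest 200 other genes, most of which are dimmer than they are. Cytosolic counts at least 1.2-fold lower were 4 with quantile normalization, 4 with loess, 21 with a filter at the 75th percentile and 2 with cre centring. Cytosolic counts at least 1.2-fold higher were 2 with no filter, 0 with the stricter filter, 4 without cross-hybridising probe set types, 3 with cre centring and 6 with the faintest kept probe set, also chosen after seeing the data. Cytosolic counts at least 1.5-fold lower were 2 with no filter and 0 with the stricter filter, before and after the baseline. Those at least 1.5-fold higher were 1 with no filter, 2 without cross-hybridising types, 1 with cre centring and 2 with the faintest probe set. Mitochondrial counts at least 1.2-fold lower were 2 with cre centring. Those at least 1.2-fold higher were 2 with no centring, quantile, loess or the stricter filter, 3 with the next brightest probe set, 17 with cre centring and 8 with the faintest probe set. At least 1.5-fold lower there was 1 with loess, the mean over probe sets or cre centring. At least 1.5-fold higher there was 1 with the next brightest probe set and 2 with the faintest. Relative to the baseline, 3 and 2 mitochondrial genes were 1.5-fold lower with these probe sets. The cause of these moves was not tested, and dim probe sets limit single genes.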
